A study of Bos taurus with 6 samples.

Results

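The collagen genes are described here in the longissimus thoracis (LT) of Korean cattle steers, where collagen makes up the connective tissue that surrounds muscle fibres, fibre bundles and fat depots. Every gene symbol written as COL, a number, A and a number was taken, which gave 43 members among 23015 gene entries of the count files. By collagen type, 11 members were fibrillar, 6 were basement membrane collagens (type IV), 4 were type VI and 22 were of other types. All 43 symbols were found in NCBI's RefSeq genes for the assembly ARS-UCD2.0, a table used only for names and for neighbouring genes. COL6A6 was not analysed here.

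The study compared the transcriptome of LT with a high and with a low number of fine marbling particles (NFMP), to find genes that go with marbling fineness. According to the paper, the sequenced high-NFMP steers also had a higher marbling score and a larger rib eye area. Differences that go with fineness and with marbling score therefore cannot be told apart here. All 6 animals were Hanwoo steers, raised in the conventional way on commercial feed. The high-NFMP group held steers 3-8 (32.5 months old), 10-8 (33.8 months) and 10-9 (34.5 months), and the low-NFMP group held steers 3-1 (37.8 months), 3-3 (33.7 months) and 10-16 (35.4 months). Each steer gave 1 library of 3′ mRNA reads, with 16283873, 16530745 and 16798460 counts in the high-NFMP group and 17179629, 16791858 and 17192750 in the low-NFMP group, in the order of the steers above.

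A collagen molecule is a triple helix of alpha chains, each chain the product of its own gene. Fibrillar collagens pack into the tension-bearing fibres of the epimysium, perimysium and endomysium, type IV collagen forms the sheet-like network of the basement membrane around each muscle fibre, adipocyte and capillary, and type VI collagen forms beaded filaments between these layers. In muscle most fibrillar collagen mRNA comes from fibroblasts and fibro-adipogenic progenitors, whereas type IV collagen is made by several cell types, among them endothelial cells, muscle cells and adipocytes.

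Of the 43 members, 33 passed the filter on low counts and were tested, namely 10 fibrillar, all 6 type IV, all 4 type VI and 13 other members. With the quasi-likelihood test of edgeR, an unadjusted p below 0.05 was reached by 1 of the 33 that was higher in the high-NFMP group (COL4A4, 3.03% of the tested members) and by 1 that was lower (COL11A2, 3.03%). Over all 15039 tested genes, 5.73% were higher and 5.74% lower at that p. Both members also exceeded a fold change of 2, and 2.53% of all tested genes passed the p and fold limits together upward and 1.36% downward. After Benjamini-Hochberg adjustment of edgeR's quasi-likelihood p over all tested genes, 0 of the 33 members had an adjusted p below 0.05, against 0.685% of all tested genes, and the smallest adjusted p of a member was 0.203. By DESeq2 the count at an adjusted p below 0.05 was likewise 0, against 1.93% of all tested genes, and 2 members, COL11A2 among them, received no adjusted p. By limma after quantile normalization 0 of all tested genes passed, so its count of 0 does not bear on the collagens. COL4A4 and COL11A2 were the members with an unadjusted p below 0.05 by each tool. The members' shares thus came to a single gene in each direction and did not exceed those of all tested genes at the same p.

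After normalization for library size, all 3 high-NFMP steers lay above all 3 low-NFMP steers in 3 members (COL4A4, COL14A1 and COL18A1), and below them in 1 (COL11A2). Among all tested genes 7.97% were separated upward and 9.16% downward. The fitted log2 fold change, high minus low NFMP, was positive in 26 and negative in 7 of the 33 members, with a median of 0.22, where 51.9% of all tested genes were positive and their median was 0.02. The medians were 0.15 for fibrillar, 0.39 for type IV, 0.09 for type VI and 0.26 for other members. Most of these medians moved when a steer was left out or age was added. With single steers left out they lay between -0.05 and 0.26 for fibrillar, 0.22 and 0.50 for type IV, -0.14 and 0.25 for type VI and 0.06 and 0.52 for other members. Without steer 10-8, 20 of 33 members were positive and the median over the 33 members was 0.07. With age as a term, 17 members were positive and 16 negative, and the median was 0.04, with -0.09 for fibrillar and 0.41 for type IV members.

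Most of the differences were small. In 29 of the 33 members (87.9%) the fitted change was below 1.5-fold in either direction, compared with 82.6% of all tested genes. The 95% interval of the change stayed within 2-fold for 18 of the 33 members (54.5%) and for 57.3% of all tested genes, and for the other 15 members the interval reached beyond a change of that size. In whole muscle, fewer cells of a type and less RNA per cell cannot be told apart, and this holds for each level given here.

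**Figure D1:**
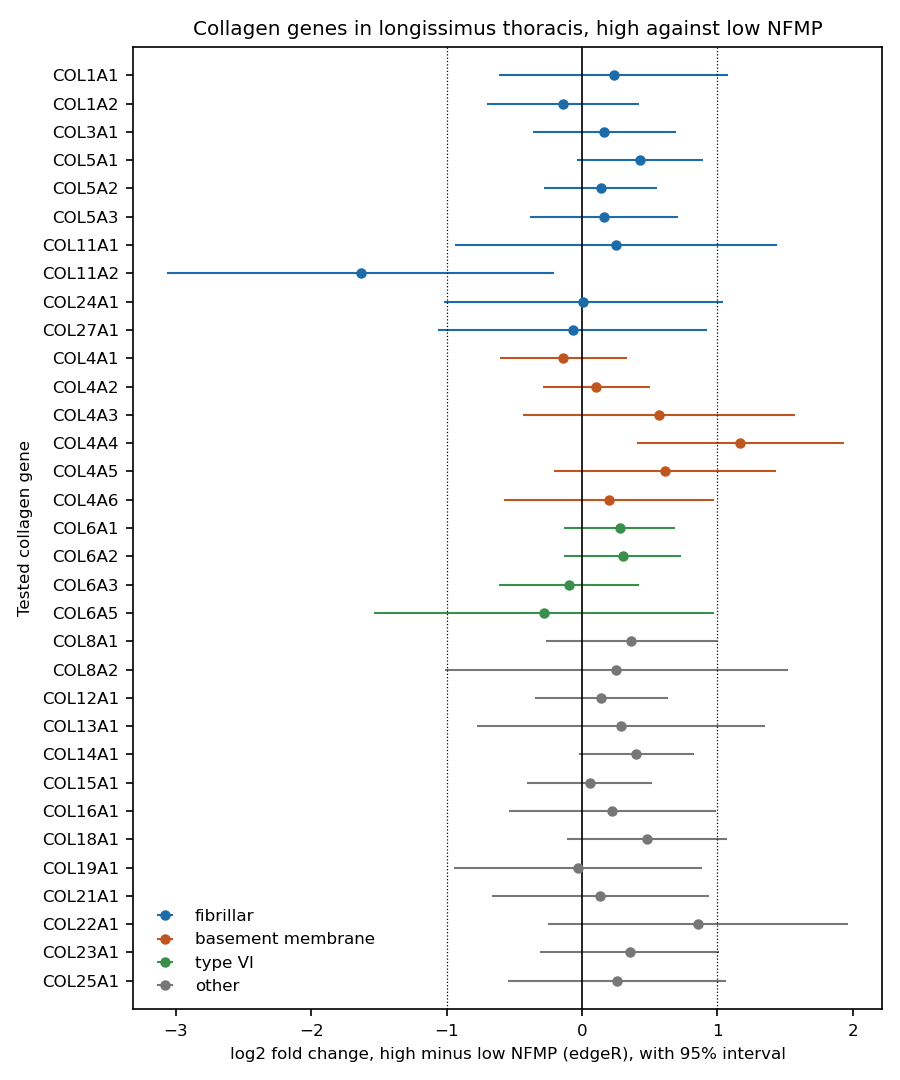
Fitted log2 fold change, high minus low NFMP (points), with its 95% interval (bars) for the 33 tested collagen genes, coloured by group of collagens; the solid line marks no change and the dotted lines a fold change of 2. The interval of COL4A4 lies to the right of no change (0.41 to 1.93) and that of COL11A2 to the left (-3.06 to -0.21), while the other 31 intervals include no change.

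Collagen counts per 10000 counts of a library were 9.30, 10.0 and 7.67 in high-NFMP steers 3-8, 10-8 and 10-9, against 8.49, 9.89 and 7.58 in low-NFMP steers 3-1, 3-3 and 10-16. The groups overlapped, with steers 10-8 and 3-3 highest and steers 10-9 and 10-16 lowest. The means were 9.01 ± 1.21 (SD, n = 3) and 8.65 ± 1.16 (SD, n = 3), a difference of 0.35 that was smaller than the spread within either group. It went from -0.18 to 1.02 when single steers were left out. With effective library sizes in place of totals it was 0.84, at 9.27 ± 1.65 against 8.43 ± 0.666 (SD, n = 3 each), which is more than the spread of the low-NFMP group and less than that of the high-NFMP group. Counting error was small beside it, with exact (Clopper-Pearson) 95% intervals of at most 0.153 counts per 10000 to either side. Fibrillar members gave 3.52 ± 1.16 against 3.30 ± 0.612 counts per 10000 and type IV members 2.91 ± 0.629 against 2.99 ± 0.533 (SD, n = 3 each). Type VI members gave 1.43 ± 0.283 against 1.36 ± 0.140, and other members 1.15 ± 0.134 against 1.01 ± 0.176 (SD, n = 3 each). With effective library sizes the means were 3.65 against 3.21 for fibrillar, 2.96 against 2.92 for type IV, 1.48 against 1.32 for type VI and 1.18 against 0.979 for other members, so the sign for type IV depended on the denominator. No group of collagens separated the steers by NFMP.

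The makeup of the collagen counts set 1 steer apart. In steer 10-8, fibrillar members held 47.7% of the collagen counts and type IV members 22.6%. In the other high-NFMP steers, 3-8 and 10-9, type IV members held the larger part (37.9% and 38.2%) and fibrillar members 34.8% and 32.9%. The low-NFMP steers had fibrillar shares of 33.7% in steer 3-1, 40.4% in steer 3-3 and 40.0% in steer 10-16, and type IV shares of 40.2%, 32.1% and 31.6%, of which that of steer 3-1 was the highest of the 6 steers. Exact 95% intervals of these shares reached at most 0.845 percentage points to either side. Steer 10-8 also held the highest normalized count in 17 of the 33 tested members, and steer 3-8 in 8. The lowest values were spread over steers 10-16 (10 members), 10-9 (9 members) and 3-1 (8 members). Over the 33 members the median log2 deviation of steer 10-8 from the mean of the 6 steers was 0.46. Over all tested genes it was 0.0024. Normalization holds that median near 0 in every steer, so it is no independent comparison. How often steer 10-8 was highest among all tested genes was not counted. Its TMM factor was the lowest (0.915), and its raw collagen counts equalled those of steer 3-3 (16605 each).

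**Figure D2:**
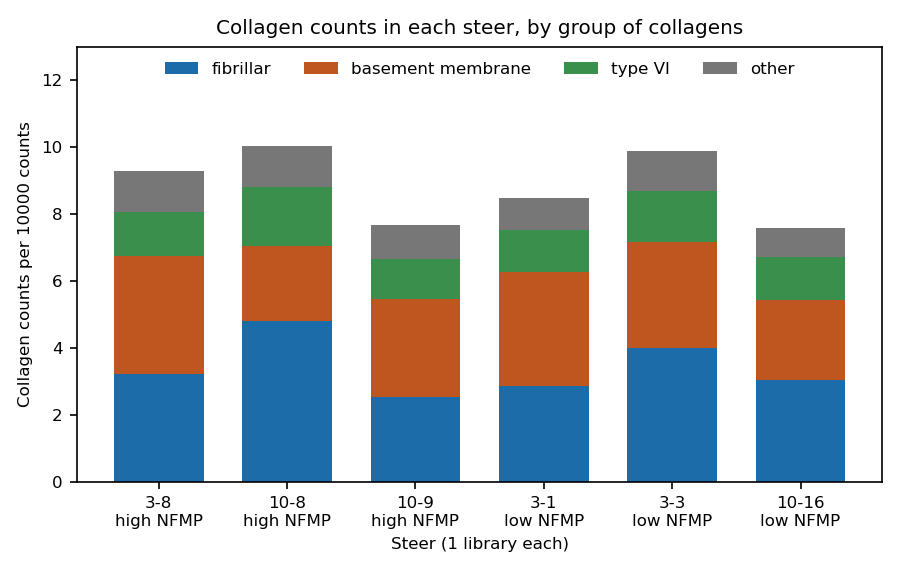
Collagen counts per 10000 counts of the library in each steer (1 library each), stacked by group of collagens. The totals of the high- and low-NFMP steers overlap (7.67 to 10.0 and 7.58 to 9.89), and steer 10-8 has the highest fibrillar (4.79) and the lowest type IV part (2.27); with effective library sizes its type IV part is close to that of steer 10-16 (2.48 against 2.47).

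Among the fibrillar members, COL1A1 encodes the chain present in 2 copies in type I collagen, the main collagen of tendon and perimysium. It was counted 1786, 3777 and 1424 times in high-NFMP steers 3-8, 10-8 and 10-9, against 1770, 2377 and 2407 times in low-NFMP steers 3-1, 3-3 and 10-16. Steer 10-8 was far above the other 5 steers, and steer 10-9 was lowest, so the high-NFMP group spanned the whole range of the low-NFMP group. The log2 fold change was 0.23 (95% interval -0.61 to 1.08), and without steer 10-8 it was -0.35. COL3A1, the single chain of type III collagen, which mixes with type I in the thin sheaths around fibres, had 1647, 2294 and 1405 counts against 1620, 2349 and 1284. Here steers 10-8 and 3-3, 1 of each group, were high and the other 4 were low, and the log2 fold change was 0.16 (95% interval -0.36 to 0.69) and -0.09 without steer 10-8. COL5A2 encodes a chain of type V collagen, which starts and limits the width of type I fibrils, and had 684, 543 and 510 counts against 523, 687 and 503. In these raw counts steers 3-8 and 3-3, again 1 of each group, were high. After normalization steer 10-8 (603) lay nearer to them (693 and 636) than to the other steers (500 to 511). The log2 fold change of COL5A2 was 0.14 (95% interval -0.28 to 0.55) and 0.02 without steer 3-8.

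COL11A2 encodes a chain of type XI collagen, the cartilage relative of type V. It was counted 6, 7 and 1 times in high-NFMP steers 3-8, 10-8 and 10-9, against 16, 13 and 19 times in low-NFMP steers 3-1, 3-3 and 10-16. Each high-NFMP steer was below each low-NFMP steer, at 4.95 ± 3.53 against 15.5 ± 3.58 normalized counts (SD, n = 3 each). The log2 fold change was -1.64 (standard error 0.67, 95% interval -3.06 to -0.21), with an unadjusted p of 0.0275 and an adjusted p of 0.364 (edgeR quasi-likelihood test, Benjamini-Hochberg). COL11A2 passed the filter only through the low-NFMP group, where it is higher, and with the filter dropped its log2 fold change was -1.66 (unadjusted p of 0.0270 by edgeR). Its unadjusted p by edgeR was no longer below 0.05 without steer 3-8 (0.0515), 10-9 (0.118), 3-1 (0.0574) or 10-16 (0.0975), or with age as a term (0.0730). Its log2 fold change in these fits was -1.82, -1.13, -1.64, -1.43 and -1.70. Of 6 cartilage cell markers, ACAN, HAPLN1, MATN3 and SNORC were near 0, with 13, 18, 10 and 2 counts over the 6 libraries together, while SOX9 had 108 and CNMD 2883.

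The other 6 tested fibrillar members had log2 fold changes from -0.14 (COL1A2) to 0.43 (COL5A1). COL5A1, the partner chain of COL5A2, was counted 500, 617 and 405 times against 396, 485 and 355 times, with an unadjusted p of 0.0673 by edgeR. Its log2 fold change was 0.23 without steer 10-8 and 0.61 without steer 10-9 (unadjusted p of 0.291 and 0.0140). The groups overlapped through steers 10-9 and 3-3. COL1A2, which gives the remaining chain of type I collagen, had 318, 489 and 262 counts against 342, 519 and 428, with steers 10-8 and 3-3 high again. The counts of COL11A1, COL24A1 and COL27A1, the minor fibrillar collagens, lay between 8 and 28 in each library.

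Of the basement membrane collagens, COL4A1 and COL4A2 encode the chains of the type IV network found around nearly all cells that rest on a basement membrane, and they held 14.3% and 17.99% of all collagen counts of the 6 libraries. COL4A2 was counted 3110, 2161 and 2709 times in high-NFMP steers 3-8, 10-8 and 10-9, against 2930, 2869 and 2208 times in low-NFMP steers 3-1, 3-3 and 10-16. The ranges overlapped almost fully, and the log2 fold change was 0.11 (95% interval -0.29 to 0.50), between -0.004 and 0.22 with single steers left out. COL4A1 had 2458, 1316 and 2035 counts against 2779, 2306 and 1789. Steer 10-8, highest in COL1A1, was lowest in COL4A1, and the log2 fold change was -0.14 (95% interval -0.61 to 0.33) and 0.07 without that steer. Both intervals lay within 2-fold.

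The chains encoded by COL4A3, COL4A4 and COL4A5 assemble into a second type IV network, best known from the basement membranes of kidney, lung, ear and eye. COL4A4 was counted 60, 94 and 59 times in high-NFMP steers 3-8, 10-8 and 10-9, against 35, 31 and 37 times in low-NFMP steers 3-1, 3-3 and 10-16. Every high-NFMP steer was above every low-NFMP steer, steer 10-8 was highest, and the low-NFMP steers were close together. The normalized counts were 74.8 ± 25.7 against 33.2 ± 4.34 (SD, n = 3 each). The log2 fold change was 1.17 (standard error 0.36, 95% interval 0.41 to 1.93), with an unadjusted p of 0.0053 and an adjusted p of 0.203 (edgeR quasi-likelihood test, Benjamini-Hochberg). The unadjusted p by edgeR, DESeq2 or limma stayed below 0.05 under all 14 alternatives, while without steer 10-8 the log2 fold change was 0.88, below the fold limit. Within the steers whose label starts with 3, COL4A4 had 60 counts against 35 and 31, and within those whose label starts with 10 it had 94 and 59 against 37.

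COL4A5, whose product joins both COL4A3 and COL4A4 chains and COL4A6 chains, was counted 43, 104 and 60 times against 51, 59 and 39 times. Steer 10-8 stood alone at the top, and steer 3-8 was below 2 low-NFMP steers. Its log2 fold change of 0.61 (95% interval -0.20 to 1.43) was 0.16 without steer 10-8, and without steer 3-8 it was 0.88, with an unadjusted p of 0.0383 by edgeR. COL4A3 had 26, 33 and 19 counts against 26, 14 and 17, with a log2 fold change of 0.57 (95% interval -0.43 to 1.58). COL4A6, found with COL4A5 around smooth muscle, had 44, 41 and 43 counts against 43, 51 and 27, and a log2 fold change of 0.20 (95% interval -0.57 to 0.98). In both the groups overlapped, and their low counts left wide intervals.

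Type VI collagen links the basement membrane of the muscle fibre to the fibrillar matrix around it, and its basic unit joins the chains of COL6A1, COL6A2 and COL6A3. COL6A1 was counted 902, 1232 and 1014 times in high-NFMP steers 3-8, 10-8 and 10-9, against 902, 1006 and 920 times in low-NFMP steers 3-1, 3-3 and 10-16. COL6A2 had 540, 705 and 551 counts against 469, 616 and 505. In both genes steer 10-8 was highest and the groups overlapped. The log2 fold changes were 0.28 (95% interval -0.13 to 0.69) for COL6A1 and 0.30 (95% interval -0.13 to 0.73) for COL6A2, and 0.12 and 0.14 without steer 10-8. COL6A3, the largest chain, had 695, 946 and 479 counts against 780, 912 and 790. The high-NFMP group held both the highest and the lowest steer, and the log2 fold change was -0.10 (95% interval -0.62 to 0.42), with -0.40 without steer 10-8 and 0.16 without steer 10-9. COL6A5, a rarer chain that can take the place of the COL6A3 product, was counted between 5 and 14 times, with a log2 fold change of -0.28. Steer 10-8 had the highest normalized count in each of the 4 type VI genes.

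Among the other collagens, COL14A1 belongs to the fibril-associated collagens, which sit on the surface of type I fibrils and lack long helices of their own. It was counted 554, 549 and 654 times in high-NFMP steers 3-8, 10-8 and 10-9, against 550, 537 and 357 times in low-NFMP steers 3-1, 3-3 and 10-16. The raw counts of 4 steers were nearly equal, and the groups separated only after normalization, at 609 ± 47.3 against 461 ± 88.5 normalized counts (SD, n = 3 each). The log2 fold change was 0.40 (95% interval -0.02 to 0.82), with an unadjusted p of 0.0615 by edgeR, and 0.29 without steer 10-16. COL15A1, a basement membrane zone collagen of muscle and capillaries, had 317, 344 and 241 counts against 294, 319 and 329, and a log2 fold change of 0.06 (95% interval -0.40 to 0.52) that turned to -0.08 without steer 10-8, the groups overlapping. COL8A1, a short-chain collagen of vessel walls, had 246, 346 and 149 counts against 206, 247 and 180. The high-NFMP steers again spanned the low-NFMP range, and the log2 fold change of COL8A1 was 0.36 (95% interval -0.26 to 0.99), 0.66 without steer 10-9 (unadjusted p of 0.0202 by edgeR) and 3.4e-05 without steer 10-8.

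COL18A1, the relative of COL15A1 whose end fragment is endostatin, was counted 108, 80 and 97 times against 73, 86 and 62 times. It is named here after its values were seen, because its groups did not overlap after normalization (98.5 ± 10.3 against 70.7 ± 8.52, SD, n = 3 each), although the raw counts did. Its log2 fold change was 0.48 (95% interval -0.11 to 1.07), with an unadjusted p of 0.104 by edgeR. The largest log2 fold change among the other types was 0.86 (95% interval -0.25 to 1.96) for COL22A1, a collagen of the junction between muscle and tendon, likewise named after its values were seen. It had 38, 17 and 20 counts against 10, 12 and 22, so that 1 low-NFMP steer lay above 2 high-NFMP steers, and the log2 fold change was 0.45 without steer 3-8, 0.42 with age as a term and 1.34 without steer 10-16 (unadjusted p of 0.459, 0.561 and 0.0419 by edgeR). Of the 13 tested members of other types, 12 had a positive value and 1 a negative one (COL19A1, -0.03). The transmembrane collagens COL13A1, COL23A1 and COL25A1, of which COL13A1 and COL25A1 take part in building the nerve-muscle junction, had log2 fold changes from 0.26 to 0.35.

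**Figure D3:**
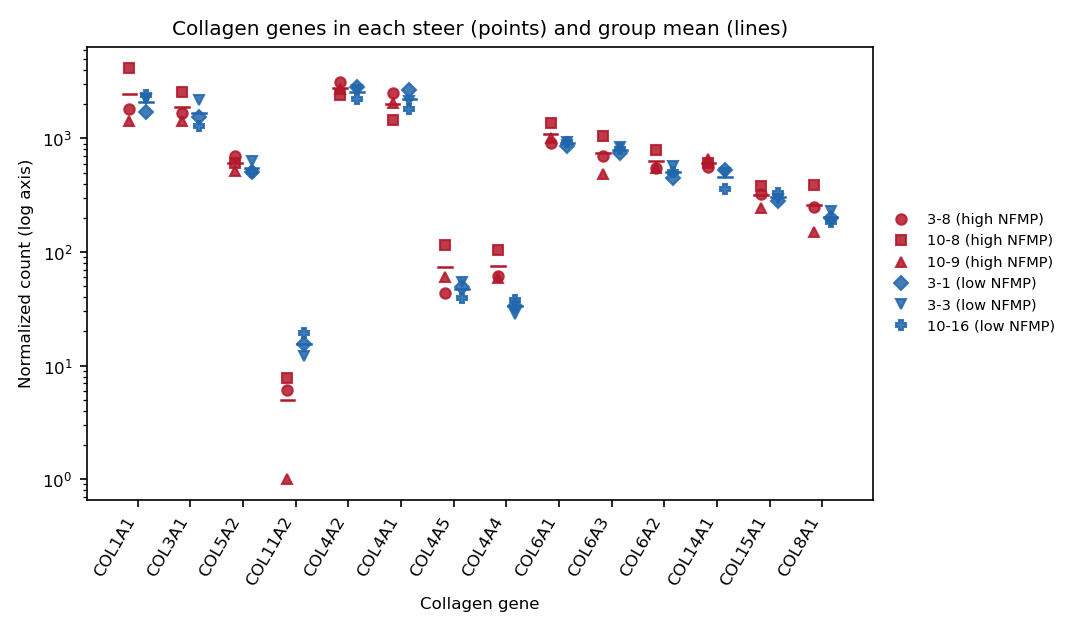
Normalized counts (log axis) of 14 collagen genes in each steer, with a point for each of the 3 high-NFMP (red) and 3 low-NFMP steers (blue) and a line at each group mean; symbols tell steers apart and pair none of them. Red and blue points do not overlap in COL4A4, COL11A2 and COL14A1, and steer 10-8 (red squares) is highest in COL1A1, COL4A5 and the type VI genes.

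The 10 members that were not tested were COL2A1, COL7A1, COL9A1, COL9A2, COL9A3, COL10A1, COL17A1, COL20A1, COL26A1 and COL28A1. They include the main collagens of cartilage (COL2A1, the COL9 genes and COL10A1) and of the skin's attachment to its basement membrane (COL7A1 and COL17A1). The most counted of them in a single library was COL20A1, with 3, 15 and 5 counts against 0, 12 and 8. In 6 of the 10, fewer than 10 counts were found over all 6 libraries together. With the filter dropped all 43 members were tested, and those at an unadjusted p below 0.05 by edgeR were COL4A4 and COL11A2 as before.

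Pairs of genes were compared by the ratio of their counts within a steer, most of them for chains of the same collagen type. COL6A1 over COL6A2 was the steadiest, between 1.63 (steer 3-3) and 1.92 (steer 3-1). COL4A1 over COL4A2 was 0.790, 0.609 and 0.751 in high-NFMP steers 3-8, 10-8 and 10-9, against 0.948, 0.804 and 0.810 in low-NFMP steers 3-1, 3-3 and 10-16. The groups did not overlap in it, by a narrow margin (0.790 against 0.804). COL1A1 over COL1A2 was 7.72 in steer 10-8 and between 4.58 and 5.62 in the other 5 steers. COL4A4 over COL4A3 was 2.31, 2.85 and 3.11 in high-NFMP steers 3-8, 10-8 and 10-9, against 1.35, 2.21 and 2.18 in low-NFMP steers 3-1, 3-3 and 10-16. The groups did not overlap in this ratio, which rests on 14 to 33 counts of COL4A3 and was looked at with the values of COL4A4 known. COL6A3 over COL6A1 did not overlap either, and was lower in the high-NFMP steers. It was 0.771, 0.768 and 0.472 in steers 3-8, 10-8 and 10-9, against 0.865, 0.907 and 0.859 in steers 3-1, 3-3 and 10-16. COL3A1 over COL1A1 varied from 0.533 to 0.988, with the low values in steers 10-16 and 10-8, 1 of each group. The groups also overlapped in COL4A5 over COL4A6 and in COL5A1 over COL5A2. How often ratios of other genes separate the groups was not examined.

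In the RefSeq table of ARS-UCD2.0, 6 pairs of collagen genes were direct neighbours, namely COL4A1 and COL4A2, COL4A3 and COL4A4, COL4A5 and COL4A6, COL6A1 and COL6A2, COL3A1 and COL5A2, and COL9A1 and COL19A1. The type IV pairs lie head to head and share a promoter region in mammals. In these data the log2 fold changes of neighbours were -0.14 and 0.11, 0.57 and 1.17, 0.61 and 0.20, 0.28 and 0.30, and 0.16 and 0.14 in the first 5 pairs. COL4A4 overlaps RHBDD1 in that table, and the sources used here do not say whether strand entered the counting, so reads of these genes may not be fully separate. RHBDD1 was counted 122, 95 and 85 times against 81, 109 and 90 times, and its groups overlapped (log2 fold change 0.22, standard error 0.27, unadjusted p of 0.424 by edgeR).

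Genes that fold, export, crosslink or bind collagen were taken from 4 lists, of which 61 of 71 listed genes were tested. At an unadjusted p below 0.05 by edgeR, 5 of the 61 were higher in the high-NFMP group (8.20%) and 2 were lower (3.28%), where all tested genes had 5.73% and 5.74%. A fold change of 2 was exceeded as well by 3 of the higher ones (4.92%) and by 0 of the lower ones, where all tested genes had 2.53% and 1.36%. After Benjamini-Hochberg adjustment of the edgeR quasi-likelihood p, 0 of the 61 passed 0.05, against 0.685% of all tested genes, and the smallest adjusted p was 0.177. By DESeq2 the adjusted count was also 0, against 1.93% of all tested genes, and by limma no gene of any kind passed. The median log2 fold change was 0.12 for 20 genes of collagen folding and modification, -0.09 for 15 genes of procollagen export, trimming and crosslinking, 0.29 for 9 receptor and uptake genes, and -0.07 for 17 basement membrane partners of type IV collagen. With single steers left out these medians lay between 0.09 and 0.16, -0.22 and 0.05, 0.16 and 0.34, and -0.33 and 0.11, so the sign of the second and of the last list was not fixed.

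Of the folding genes, FKBP10 encodes a prolyl isomerase of the endoplasmic reticulum that assists type I procollagen and its crosslinking. It was counted 30, 56 and 72 times in high-NFMP steers 3-8, 10-8 and 10-9, against 21, 26 and 15 times in low-NFMP steers 3-1, 3-3 and 10-16. The groups did not overlap. The log2 fold change was 1.47 (standard error 0.43), with an unadjusted p of 0.0039 and an adjusted p of 0.177 (edgeR quasi-likelihood test, Benjamini-Hochberg), and the unadjusted p stayed below 0.05 under all 14 alternatives. TMEM38B, a potassium channel of the endoplasmic reticulum needed for normal collagen assembly, had 1233, 1033 and 819 counts against 1496, 1806 and 1722. Each high-NFMP steer was below each low-NFMP steer, and the log2 fold change was -0.59 (unadjusted p of 0.0091 and adjusted p of 0.251, edgeR quasi-likelihood test, Benjamini-Hochberg). The unadjusted p of TMEM38B by edgeR, DESeq2 or limma also stayed below 0.05 under all 14 alternatives, at log2 fold changes between -0.80 and -0.42. P4HA3, a catalytic subunit of prolyl 4-hydroxylase, had 1183, 795 and 1150 counts against 1196, 1149 and 1147, and a log2 fold change of -0.06, the groups overlapping.

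Of the export and trimming genes, MIA3 and MIA2 help to load procollagen into large transport carriers. MIA3 had 1261, 1006 and 1088 counts against 1465, 1238 and 1303 (log2 fold change -0.15), and MIA2 had 515, 351 and 449 against 608, 560 and 640 (log2 fold change -0.36, unadjusted p of 0.0832 by edgeR). The groups overlapped in both after normalization, and MIA2 was at -0.23 without steer 10-8, -0.25 without steer 10-16 and -0.47 without steer 3-8 (unadjusted p of 0.283, 0.289 and 0.0323 by edgeR). PCOLCE, which speeds the removal of the carboxyl end piece of fibrillar procollagens, had 215, 371 and 207 counts against 199, 194 and 169. Its groups did not overlap, steer 10-8 was far above the rest, and the log2 fold change of 0.63 (unadjusted p of 0.0330 by edgeR) was 0.27 without that steer, with an unadjusted p of 0.273. The unadjusted p of PCOLCE missed 0.05 in 7 of 14 alternatives, and in those other than the loss of steer 10-8 the log2 fold change stayed between 0.54 and 0.70.

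Among the receptors, ITGA11 encodes the integrin subunit that fibroblasts use to hold fibrillar collagen. It was counted 59, 65 and 49 times in high-NFMP steers 3-8, 10-8 and 10-9, against 15, 34 and 37 times in low-NFMP steers 3-1, 3-3 and 10-16. The groups did not overlap, and steer 3-1 was the lowest. The log2 fold change was 1.12 (standard error 0.41, unadjusted p of 0.0149 and adjusted p of 0.296, edgeR quasi-likelihood test, Benjamini-Hochberg). It was 0.81 without steer 3-1 (unadjusted p of 0.0709 by edgeR) and 0.70 with age as a term (unadjusted p of 0.182). ITGB1, the beta subunit that all collagen-binding integrins share, had 1065, 791 and 655 counts against 1336, 1457 and 1219. Here each high-NFMP steer was below each low-NFMP steer, and the log2 fold change was -0.56 (unadjusted p of 0.0136 by edgeR), and -0.38 without steer 10-9 (unadjusted p of 0.0610). DDR1, a receptor kinase activated by collagen, had 518, 492 and 352 counts against 311, 267 and 342, without overlap of the groups. Its log2 fold change was 0.68 (unadjusted p of 0.0081 by edgeR), and when age was a term it was 0.67 with an unadjusted p of 0.0522. ITGA1, the integrin subunit that prefers type IV collagen, had 748, 589 and 725 counts against 839, 809 and 805, and a log2 fold change of -0.14, the groups overlapping after normalization.

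Of the partners of type IV collagen, SPARC, a collagen-binding glycoprotein, was counted 5354, 4370 and 2809 times against 4114, 4043 and 3689 times (log2 fold change 0.20). LAMA2, the laminin chain of the muscle fibre's basement membrane, had 3759, 2279 and 2431 counts against 2962, 3723 and 4493 (log2 fold change -0.30). The groups overlapped in both. SPARC had a log2 fold change of 0.01 without steer 3-8 and 0.45 without steer 10-9 (unadjusted p of 0.962 and 0.0292 by edgeR). LAMA2 had -0.08 without steer 10-16 and -0.54 without steer 3-8 (unadjusted p of 0.760 and 0.0294).

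Marker genes of the cells that a muscle sample can hold were summed in each steer, to set the collagen values beside them. The 9 fibroblast and fibro-adipogenic progenitor markers analysed summed to 12885, 13274 and 13936 normalized counts in high-NFMP steers 3-8, 10-8 and 10-9, against 9013, 11197 and 12858 in low-NFMP steers 3-1, 3-3 and 10-16. The high-NFMP steers were all above the low-NFMP steers, steer 3-8 by little. DCN gave the most counts, and without it the sums overlapped (4530 to 5800 against 3581 to 5143). Of the 9, 7 had a positive and 2 a negative log2 fold change (median of all 9, 0.31), the negative ones being MFAP5 with -0.11 and PDGFRA with -0.51 (unadjusted p of 0.0391 by edgeR). The 8 adipocyte markers summed to 13676, 12068 and 11007 against 9161, 9475 and 9387, again without overlap. GPD1 gave the most counts. Its own groups overlapped, and without it the sums did as well (3352 to 9319 against 2996 to 4149), with steer 3-8 far above the rest. GPD1 was highest in steer 10-8 and lowest in steer 3-8, whereas every other marker of this list was highest in steer 3-8. Which cells gave the GPD1 counts was not tested. All 8 were positive with a median of 0.62, and 4 (50%) had an unadjusted p below 0.05 by edgeR, where 51.9% of all tested genes were positive and 5.73% were higher at that p.

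The 6 tendon cell markers together were highest in steer 10-8, as were the summed fibrillar and type VI collagens. Their summed normalized counts were 998, 1758 and 776 in high-NFMP steers 3-8, 10-8 and 10-9, against 655, 865 and 1135 in low-NFMP steers 3-1, 3-3 and 10-16. THBS4 gave the most counts, and without it steer 10-8 still had the highest sum (513, against 115 to 278 in the other steers). THBS4, FMOD and SCX were highest in steer 10-8. KERA, MKX and TNMD were not, and TNMD, a defining tendon gene, had only 20 counts over the 6 libraries. Steer 10-8 was also highest in the fibroblast and fibro-adipogenic progenitor sum without DCN and in the Schwann cell sum (1901). MBP gave the most Schwann cell counts. Without it the sum of steer 10-8 was 689, below those of steers 3-8 (844), 3-3 (831) and 10-9 (729). In the skeletal muscle fibre markers without TTN, their most counted gene, steer 10-8 was highest too (1233510, against 716458 to 992465 in the other steers). With TTN, steer 10-16 was highest (2138390). The part of any of these cells in the high collagen values of steer 10-8 was not tested.

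In the remaining lists the summed values of both groups overlapped. The sums were 1319 to 1908 against 1251 to 1627 for 8 endothelial markers, 3854 to 4438 against 4178 to 4698 for 8 pericyte and smooth muscle markers, and 1329 to 1901 against 936 to 1439 for 7 Schwann cell markers. For 8 macrophage markers they were 718 to 1114 against 508 to 979, and for 6 cartilage markers 426 to 546 against 457 to 565, nearly all of the last from CNMD. At an unadjusted p below 0.05 by edgeR, 3 of 8 macrophage markers were higher (37.5%, where 5.73% of all tested genes were higher). They were C1QA (log2 fold change 0.73), C1QC (0.85) and AIF1 (1.04). Of the 8, 6 were positive and 2 negative, the latter being CD163 (-0.56) and CD68 (-0.10). At the same p, CLDN5 (0.93) was higher as 1 of 8 endothelial markers (12.5%), of which 4 were positive and 4 negative. MBP (0.76) was higher as 1 of 3 tested Schwann cell markers (33.3%), all of them positive. ABCC9 (-0.40) was lower as 1 of 8 pericyte and smooth muscle markers (12.5%, against 5.74% of all tested genes). Of these 8, 5 were positive and 3 negative. ABCC9 also gave the most counts of its list, and without it the sums were 1718 to 2506 against 1477 to 1977. The 10 skeletal muscle fibre markers, led by TTN, summed to between 1710910 and 2138390 normalized counts in the 6 steers. No marker in these 9 lists was at 0 in all 6 libraries.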

How the data were processed

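Libraries of LT from 6 steers were prepared with a 3′ mRNA kit, named SENSE 3′ in the paper and Quant-Seq in the sample labels. The authors deposited raw read counts for each gene symbol, without normalization. The methods name Tophat2 with HTSeq and, elsewhere, Bowtie2 with unique and multiple alignments, and the submitters' processing notes name Bowtie2 and bedtools. The sources used here do not say which of these made the counts or whether strand was used, so related or overlapping genes may share reads. 3′ reads do not scale with transcript length, and the order of counts between genes was not read as an order of mRNA levels.

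The analysis was run with edgeR 4.0.16 in R 4.3.3. Its default filter by group (minimum count 10, minimum total 15) kept 15039 of 23015 entries and took away no more than 0.151% of any library's counts. TMM factors lay between 0.915 and 1.08, and the biological coefficient of variation was 25.1%. High and low NFMP were compared by its quasi-likelihood test, robustly fitted on all tested genes, with Benjamini-Hochberg adjustment over all of them. As in the methods of the study, a call needed a fold change above 2 and an unadjusted p below 0.05, and calls at an adjusted p below 0.05 were added. An exact permutation test of 3 against 3 steers cannot give a p below 0.1. Standard errors came from the log2 fold change and the F statistic, and 95% intervals from the t distribution. A normalized count is the count divided by the steer's effective library size and multiplied by the mean of these sizes. Reads carried no molecular identifiers, so counting intervals cover counting error only.

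Values in every steer were given for the 3 most counted members of each of the 4 collagen groups and for each member at an unadjusted or adjusted p below 0.05, and, from each of the 4 companion lists, for the 2 most counted genes and each gene past a call. Of the latter, 1 is not reported here. COL1A2, COL4A3, COL4A6, COL5A1, COL18A1, COL20A1 and COL22A1 were added after their values were seen. The members, the companion lists and the 9 marker lists were chosen with earlier results of these data known. As alternatives, the filter was dropped or raised to 10 counts in each library, TMM was replaced by RLE or by plain library totals, DESeq2 1.42.0 or limma 3.58.1 (on quantile-normalized log2(count + 1) values) replaced edgeR, the leading number of the label or the age entered the fit, and steers were left out singly. For shares of counts the effective library size replaced the library total. The procedure was tested on simulated data with known changes.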

Additional observations from a re-analysis of the deposited data

How the results depend on the processing

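Over the 14 alternatives to the comparison of high with low NFMP, the number of collagen genes at an adjusted p below 0.05 was 0 in each, as was that of the companion genes. The collagen genes past the p and fold limit fell from 2 to 1 with at least 10 counts in every library and with age as a term, and the number at an unadjusted p below 0.05 went from 2 to 1 in the same alternatives. With at least 10 counts in every library COL11A2 was not tested, which accounts for the loss there. With age as a term, 17 collagen genes in place of 26 had a positive log2 fold change, and 1 companion gene in place of 3 passed the p and fold limit, and the cause was not tested. When single steers were left out, the collagen genes past that limit numbered 1 to 2, those at an unadjusted p below 0.05 1 to 3, those with a positive value 20 to 30, and the companion genes past the limit 1 to 3. The median log2 fold change of the collagen genes lay between 0.07 and 0.35 in these fits, and at 0.14 with library totals alone. The difference in collagen counts per 10000 lay between -0.18 and 1.02 with a steer left out and was 0.84 with effective library sizes. COL4A4 had a log2 fold change between 0.88 and 1.33 and an adjusted p of at least 0.0987. COL14A1 had an unadjusted p of 0.0463 by edgeR with the leading number of the label in the fit. Among the collagen and companion genes followed singly over these alternatives, none past an unadjusted p of 0.05 changed direction. The marker genes were not followed in this way. No paired analysis was possible because the labels match no high-NFMP steer to a single low-NFMP steer. The leading number of the label, which several steers share, could only enter the fit as a term. Genes with about 10 counts in a library, such as COL11A2 and COL6A5, had intervals wider than 2-fold.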
